A study of Danio rerio with 14 samples.

Results

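The genes described here make up the machinery that copies DNA and divides the cell, measured by microarray in whole zebrafish larvae exposed to treated wastewater. Probes were named through their RefSeq accession alone. A list of 56 cell cycle and DNA replication genes was matched to these names by symbol or synonym. Of the 56 genes, 47 were matched to a probe and 46 were bright enough to be tested, among 12811 genes tested in all. The ribonucleotide reductase gene rrm2 was represented by rrm2l, which carries rrm2 as a synonym in the gene table. Both probes of gins1, a subunit of the helicase activator GINS, were too dim to be tested. The genes cdt1, rfc2, pola1, fen1, bub1, cenpf, top2a, tpx2 and e2f1 were not matched to a probe and were not analysed here. Only 25978 of the 43603 probes could be named, so a probe for these genes may be on the array without a name.

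Larvae of the wild-type AB strain were grown from 3 h after fertilisation until 5 days of age in wastewater effluent, collected after secondary treatment at a plant in Tucson. The effluent had been reconstituted in E3, a saline for fish embryos. It was given undiluted on 5 arrays (1x) and diluted on another 5 (0.5x). Larvae of 4 control arrays were kept in E3 with 0.05% DMSO, the solvent that the effluent media also held at up to that concentration. A well of 25 to 30 embryos was 1 replicate. The p-values measure the spread between wells, which also holds any spread between the slides and scan days of their arrays. The sources used here do not say whether wells shared a clutch. RNA of a whole larva mixes all its cells: more dividing cells and more RNA per dividing cell cannot be told apart in it. The question of the comparisons below is how the genes of replication and of mitosis differed between 1x, 0.5x and control.

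Before a cell can copy its DNA, the Orc and Cdc6 proteins load the ring-shaped Mcm helicase onto origins, a step called licensing, and Cdc45 and GINS then switch the helicase on. The sliding clamp Pcna, set in place by replication factor C, holds DNA polymerase delta to the template, replication protein A coats the single strands, and ribonucleotide reductase and thymidylate synthase supply the building blocks. Cyclins with their kinases time these steps and the entry into mitosis, where the Aurora and Polo kinases, the spindle checkpoint and motor proteins part the chromosomes. In the fish larva, dividing cells are found in the rim of the retina, along the brain ventricles, in the gut and in blood-forming tissue.

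All expression values are log2 signals less the 75th percentile of their array, so that 0 is the signal of that percentile. They are given in the order of the replicate numbers and serve to compare arrays, not one gene with another. The number of arrays limits the precision. Arrays were scanned on 2 days: day 1 held 1x replicates 1 to 3, 0.5x replicate 1 and control replicates 1 and 2, and day 2 held the other arrays. Slide 1 held control replicate 1 and 1x replicate 1, with no 0.5x array. Slide 4 held control replicate 4 and 0.5x replicates 3 to 5, with no 1x array. Slides 2 and 3 held arrays of all groups, so the effluent strengths were spread unevenly over the slides. Control replicates 1 and 2 stood apart from the other arrays in markers of digestive organs, with hepatocyte genes on average 1.97 and 1.19 below their mean over all arrays (log2). Between 85.4% and 90.9% of probes were well above background on an array. The range was 89.0% to 90.9% at 1x, 86.7% to 89.4% at 0.5x and 85.4% to 88.1% in controls. In this share every 1x array was thus above every control array. Its part in the gene differences was not tested. Each list of markers for liver, intestine, pancreas, neurons and muscle had 16 to 19 genes that were bright enough to be tested.

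In larvae kept in 1x effluent, genes of DNA replication rose against control. Of the 46 genes, 17 rose and 0 fell (limma, adjusted p under 0.05 over all probes). At an unadjusted p under 0.05 the counts were 26 and 0, and 5180 of all 12811 genes passed that level in either direction (limma). The 17 genes were 37.0% of those tested, where 10.3% of all genes were called higher and 16.2% lower, and 28.7% of all probes were called in either direction. The median difference of the 46 genes was 0.32 (log2), against -0.05 over all genes, and 42 of the 46 differences lay above 0. In 15 genes (32.6%) every 1x array lay above every control array, which was true of 7.99% of all genes; in 0 genes did every 1x array lie below every control array, against 12.3% of all genes.

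The 17 genes were not spread evenly over the roles. Among the 25 genes of licensing, the replication fork and nucleotide supply, 14 rose (56%), with a median difference of 0.39. Among the 9 cyclins and cyclin-dependent kinases only cdk2 rose by its brightest probe (11.1%), with a median of 0.25. For ccnb1, 5 of 6 probes were called higher, but not the brightest. Among the 11 genes of mitosis only mad2l1 rose (9.09%), with a median of 0.18. Both shares were near the 10.3% of all genes called higher. The checkpoint kinase gene chek1 was the remaining one. The medians of all these roles were above 0 under each scaling of the arrays that was tried.

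**Figure D1:**
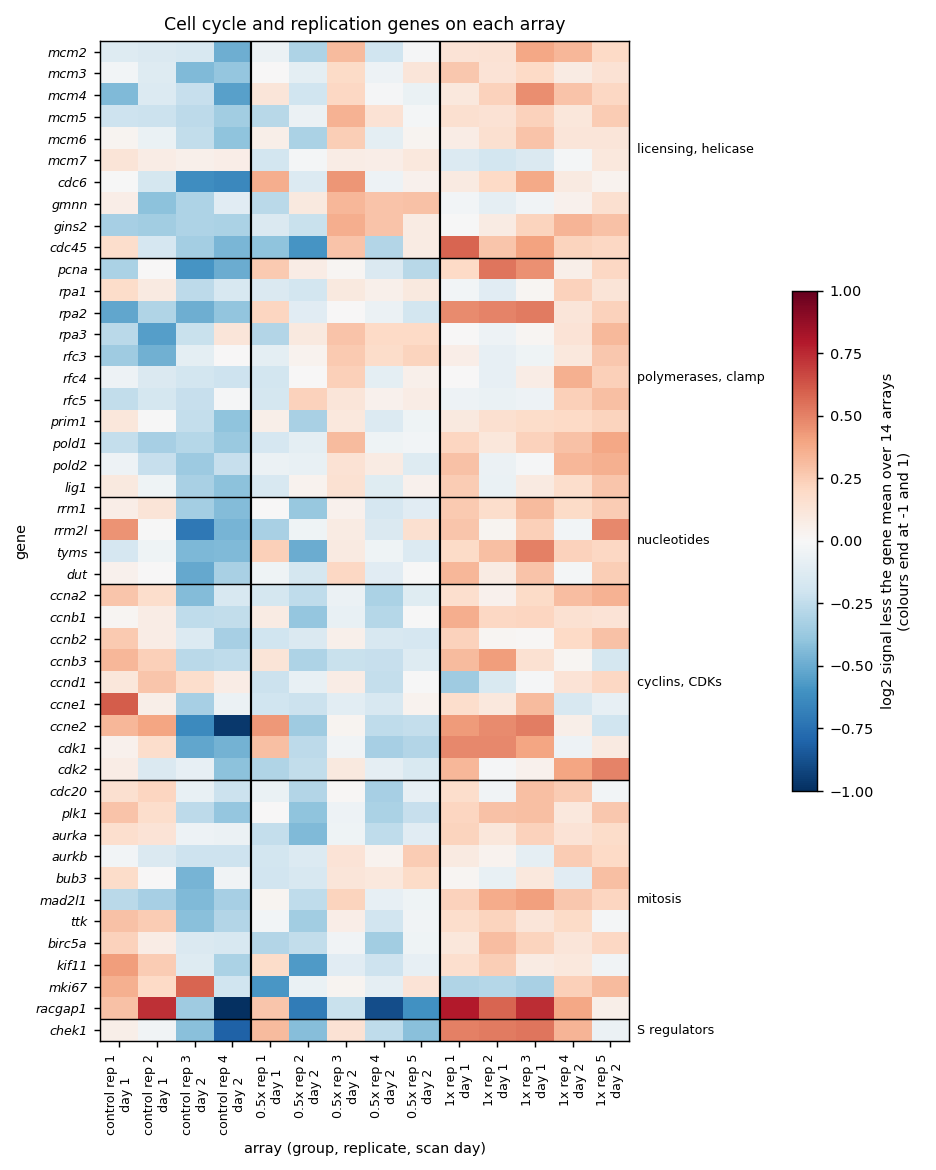
Signal of the 46 tested genes on each of the 14 arrays, as the log2 signal less the mean of the gene over all arrays (colour, from blue below to red above the mean). Columns are arrays in order of effluent strength with their scan day, and rows are genes in order of role. Most replication genes in the upper rows are red on the 1x arrays and blue on the control arrays, mcm7 being an exception, while many cyclin and mitosis genes are also red on control replicates 1 and 2.

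Licensing and helicase genes had the highest share of called genes among the larger roles: 7 of 10 rose, with a median difference of 0.45. The licensing factor gene cdc6 read -0.31, -0.21, -0.03, -0.31 and -0.37 on the 1x arrays, against -0.41, -0.58, -1.02 and -1.05 on the control arrays. Its difference was 0.52 ± 0.16 (SE, 5 against 4 arrays; limma adjusted p = 0.0281). Every 1x array was above every control array, although 1x replicate 5 and control replicate 1 lay close together.

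The Mcm helicase is a ring of related subunits, and the genes of 4 of its 6 subunits rose. For mcm2 the 1x arrays read 3.48, 3.49, 3.73, 3.67 and 3.55 and the control arrays 3.21, 3.20, 3.18 and 2.85, a difference of 0.47 ± 0.13 (limma adjusted p = 0.0178). For mcm3 the 1x arrays read 1.49, 1.35, 1.41, 1.30 and 1.36 and the control arrays 1.19, 1.09, 0.77 and 0.83, a difference of 0.41 ± 0.11 (limma adjusted p = 0.0146). In neither gene did the groups overlap. For mcm4 the 1x arrays read 1.99, 2.11, 2.35, 2.16 and 2.09 and the control arrays 1.44, 1.74, 1.66 and 1.34, a difference of 0.60 ± 0.12 (limma adjusted p = 0.00435). For mcm5 the 1x arrays read 3.07, 3.06, 3.14, 3.03 and 3.17 and the control arrays 2.71, 2.70, 2.66 and 2.57, a difference of 0.44 ± 0.11 (limma adjusted p = 0.0147). These groups did not overlap either, and the mcm5 arrays were tight within each group. The other helicase subunits, mcm6 and mcm7, did not pass the test: mcm6 differed by 0.32 ± 0.12 (limma adjusted p = 0.060), with every 1x array above every control array, and mcm7 by -0.16 ± 0.10 (limma adjusted p = 0.227).

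The genes of the helicase activators rose as well. The GINS subunit gene gins2 read 0.77, 0.86, 1.00, 1.11 and 1.06 on the 1x arrays, against 0.44, 0.43, 0.46 and 0.45 on the control arrays, a difference of 0.51 ± 0.13 (limma adjusted p = 0.0115). Its control arrays were nearly equal, and all 1x arrays lay clear of them. The gene cdc45 read -0.43, -0.73, -0.62, -0.79 and -0.80 on the 1x arrays, against -0.84, -1.19, -1.36 and -1.48 on the control arrays, a difference of 0.54 ± 0.18 (limma adjusted p = 0.0366). The groups were separated by a narrow gap, with control replicate 1 nearest to the 1x arrays. The gene gmnn, whose product geminin blocks relicensing, differed by 0.20 ± 0.14 and did not pass (limma adjusted p = 0.277).

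At the replication fork, 4 of 11 genes rose, all 11 differences were above 0 and the median was 0.32. The replication protein A subunit gene rpa2 had the smallest adjusted p of all 46 genes. It read -0.08, -0.06, -0.03, -0.43 and -0.32 on the 1x arrays, against -1.07, -0.86, -1.04 and -0.95 on the control arrays, a difference of 0.80 ± 0.12 or 1.74-fold (limma adjusted p = 0.000911). The groups were far apart, and the 3 arrays of scan day 1 were the highest at 1x. The other subunits of the same protein were called in no direction: rpa1 differed by 0.08 ± 0.12 and rpa3 by 0.32 ± 0.15 (limma adjusted p = 0.615 and 0.117).

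The clamp gene pcna, a common marker of cells in replication, read 0.73, 1.07, 0.99, 0.59 and 0.74 on the 1x arrays, against 0.22, 0.54, -0.06 and 0.04 on the control arrays. The difference was 0.64 ± 0.15 or 1.56-fold (limma adjusted p = 0.00863), and the lowest 1x array lay just above the highest control array. The clamp loader genes rfc3, rfc4 and rfc5 differed by 0.29, 0.26 and 0.24 and did not pass (limma adjusted p = 0.0855, 0.0922 and 0.130).

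DNA polymerase delta, held by the clamp, extends the strand, and both of its subunit genes among those listed rose. The catalytic subunit gene pold1 read 0.91, 0.81, 0.92, 0.99 and 1.08 on the 1x arrays, against 0.46, 0.36, 0.41 and 0.32 on the control arrays, a difference of 0.56 ± 0.11 (limma adjusted p = 0.00393). The accessory subunit gene pold2 read 1.11, 0.76, 0.80, 1.15 and 1.17 on the 1x arrays, against 0.76, 0.59, 0.45 and 0.58 on the control arrays, a difference of 0.40 ± 0.12 (limma adjusted p = 0.0216). The pold1 groups did not overlap, whereas 1x replicate 2 and control replicate 1 met in pold2. The primase gene prim1 and the DNA ligase gene lig1 differed by 0.30 and 0.32 and did not pass (limma adjusted p = 0.0692 and 0.0671).

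Of the 4 genes that supply nucleotides, 3 rose, and the median was 0.38. The thymidylate synthase gene tyms read 0.44, 0.55, 0.76, 0.48 and 0.45 on the 1x arrays, against 0.08, 0.20, -0.20 and -0.19 on the control arrays, a difference of 0.56 ± 0.14 (limma adjusted p = 0.0135). The groups did not overlap. The large subunit gene of ribonucleotide reductase, rrm1, rose by 0.39 ± 0.13, and dut, whose product removes dUTP, by 0.38 ± 0.13 (limma adjusted p = 0.0393 and 0.0446). The small subunit gene rrm2l read 2.26, 2.02, 2.23, 1.96 and 2.47 on the 1x arrays, against 2.44, 1.99, 1.27 and 1.53 on the control arrays. It did not pass (0.38 ± 0.20; limma adjusted p = 0.159): control replicates 1 and 2 lay within the 1x values and control replicates 3 and 4 below all of them.

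The checkpoint kinase gene chek1, which acts when replication stalls, read -2.83, -2.81, -2.79, -2.98 and -3.39 on the 1x arrays, against -3.27, -3.36, -3.75 and -4.13 on the control arrays. It rose by 0.67 ± 0.21 (limma adjusted p = 0.0278), with 1x replicate 5 inside the control range. With normexp background correction its difference was 0.23 and the call was lost.

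**Figure D2:**
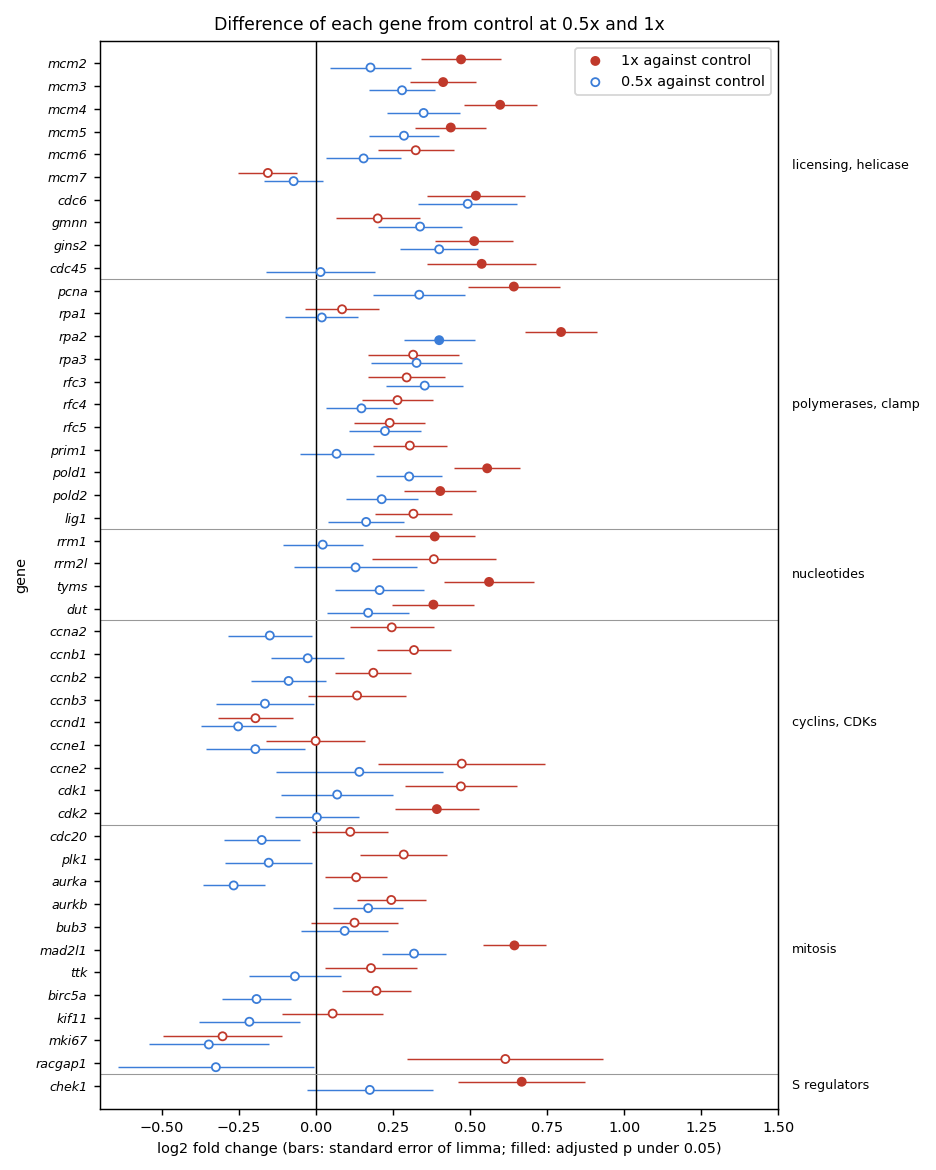
Difference from control of each of the 46 genes (log2 fold change, x axis), at 0.5x (blue) and at 1x (red), by role from top to bottom. Bars are the standard error of the fit, and filled points passed the test. At 1x, 17 points are filled, mostly in the 3 upper blocks of replication genes, and at 0.5x only rpa2 is filled.

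Cyclins and their kinases showed smaller differences at 1x. Only cdk2, a kinase of S phase entry, rose (0.39 ± 0.14; limma adjusted p = 0.0437). The mitotic cyclin gene ccnb1 read 0.79, 0.64, 0.64, 0.58 and 0.57 on the 1x arrays, against 0.45, 0.50, 0.18 and 0.18 on the control arrays. Every 1x array was above every control array, and the difference of 0.32 ± 0.12 missed the threshold (limma adjusted p = 0.0573). Its 5 other probes were called higher. The partner kinase gene cdk1 read 0.39, 0.39, 0.30, -0.14 and 0.00 on the 1x arrays, against -0.04, 0.09, -0.60 and -0.56 on the control arrays (0.47 ± 0.18; limma adjusted p = 0.0652). Its groups overlapped, and in both the arrays of scan day 1 were the higher ones. The remaining cyclin genes ran from -0.20 for ccnd1, the cyclin of growth factor response, to 0.47 ± 0.27 for the S phase cyclin ccne2, and none passed.

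Among the 11 genes of mitosis, mad2l1 of the spindle checkpoint stood alone in passing the test. It read 0.45, 0.59, 0.63, 0.49 and 0.43 on the 1x arrays, against -0.05, -0.11, -0.23 and -0.11 on the control arrays, a difference of 0.64 ± 0.10 or 1.56-fold (limma adjusted p = 0.00144). The groups were far apart. The Aurora B kinase gene aurkb read 1.38, 1.32, 1.21, 1.55 and 1.49 on the 1x arrays, against 1.26, 1.15, 1.08 and 1.09 on the control arrays (0.24 ± 0.11; limma adjusted p = 0.113). The groups overlapped in 1x replicate 3 and control replicate 1.

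The proliferation marker mki67 went the other way and did not pass. It read 0.02, 0.03, -0.01, 0.55 and 0.63 on the 1x arrays, against 0.67, 0.51, 0.89 and 0.12 on the control arrays (-0.30 ± 0.19; limma adjusted p = 0.248). The 3 arrays of 1x from scan day 1 were the lowest, and within that day alone it was called lower (-0.58, limma adjusted p = 0.00942), against a difference of 0.09 within day 2. Within day 1, 11551 of all 38803 probes were called lower and 6514 higher (limma). The Aurora A kinase gene aurka, the Polo kinase gene plk1 and the survivin gene birc5a differed by 0.13, 0.28 and 0.20. The spindle motor gene kif11 differed by 0.05, and racgap1, which acts in the final separation of the daughter cells, by 0.61 ± 0.32. None of these 5 passed (limma adjusted p = 0.140 to 0.825).

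**Figure D3:**
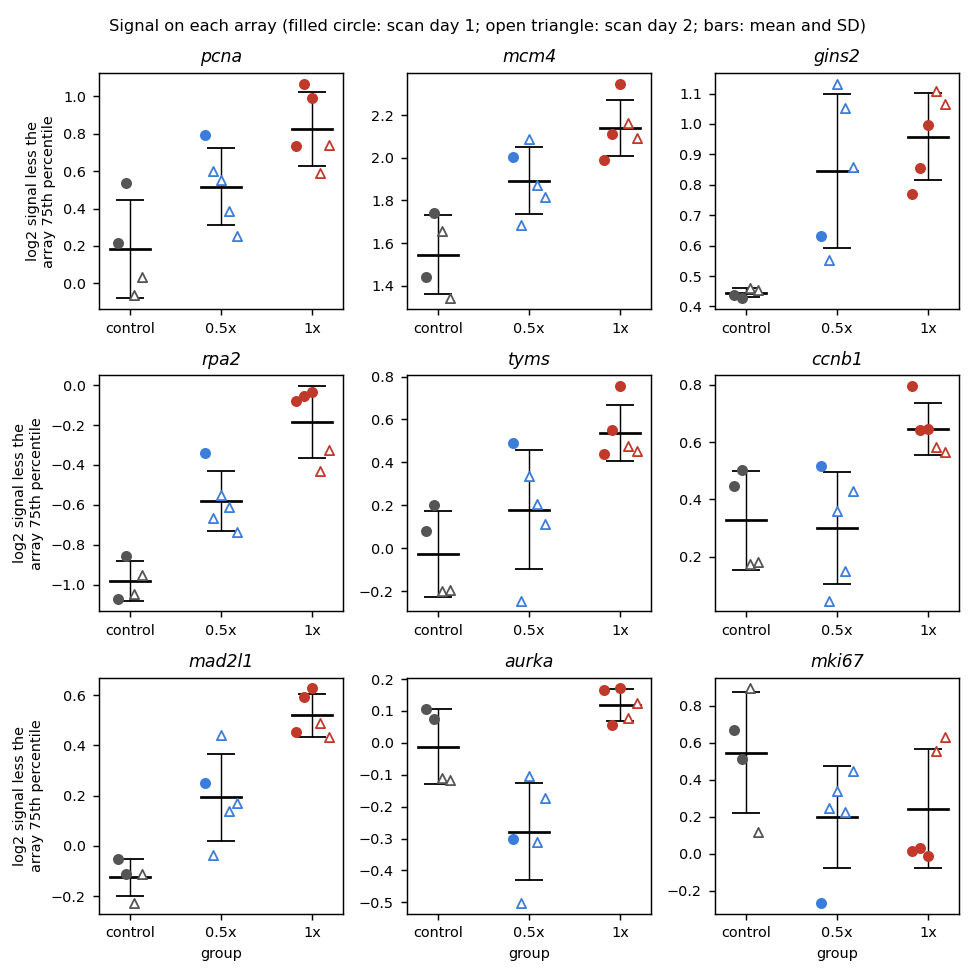
Log2 signal less the array's 75th percentile (y axis) of 9 genes on each array, by group from control to 1x. Filled circles are arrays of scan day 1 and open triangles of scan day 2; bars are the mean and SD of a group. In pcna, mcm4, gins2, rpa2, tyms, ccnb1 and mad2l1 the 1x and control arrays do not overlap. The gene aurka has its lowest mean at 0.5x, and the 1x arrays of mki67 divide by scan day.

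The calls at 1x did not rest on all arrays alike. The calls of mcm2, mcm3, mcm4, mcm5, gins2, pcna, rpa2, pold1, pold2, tyms and mad2l1 were kept whichever single array was left out. That of cdc6 was lost when control replicate 3 or 4, or replicate 2 or 3 of 1x, was left out (limma adjusted p up to 0.0705). That of chek1 was lost without any of these or replicate 1 of 1x (up to 0.0669), and that of cdc45 without any of these 5 or control replicate 2 (up to 0.0805). The call of rrm1 did not hold without control replicate 3 or 4, any 1x array, or replicate 4 of 0.5x (up to 0.0950). For dut the same was true of control replicates 3 and 4, of all 1x arrays but replicate 4, and of replicates 2, 4 and 5 of 0.5x (up to 0.118). For cdk2 it was true of control replicates 2 to 4, of replicates 1, 4 and 5 of 1x, and of replicates 2, 4 and 5 of 0.5x (up to 0.104). Without control replicate 3, 11 of the 46 genes were called in place of 17.

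The median difference from control was larger on scan day 2 than on day 1. Within day 1 (3 against 2 arrays) the median difference of the 46 genes at 1x was 0.16, against -0.10 over all genes, and within day 2 (2 against 2 arrays) it was 0.52, against -0.01 over all genes. The difference between the days was not tested. On both days 34 of the genes were above 0, and all 17 called genes were. For the replication genes the medians were 0.28 and 0.59, for cyclins and kinases 0.01 and 0.48, and for mitosis genes 0.04 and 0.34. With scan day in the model as a block, 27 genes were called, all higher. In that fit 5644 of all 38803 probes were called higher and 9322 lower (limma). Without control replicates 1 and 2, 26 genes were called, all higher, beside 2028 of all probes called higher and 2248 lower (limma).

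**Figure D4:**
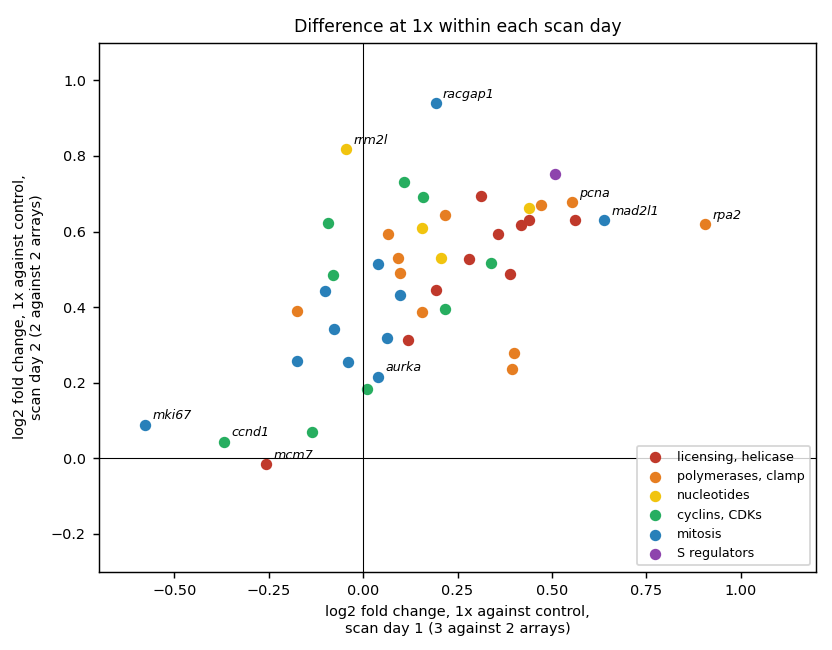
Difference at 1x against control within scan day 1 (x axis) and within scan day 2 (y axis), both as log2 fold changes, for each of the 46 genes, coloured by role. The gene rpa2 lies farthest to the right, at 0.91 on day 1 and 0.62 on day 2. Nearly all points lie above 0 on day 2, and those of cyclin and mitosis genes cluster near 0 on day 1.

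The control arrays themselves divided by scan day in these genes. In 34 of the 46 genes (73.9%) control replicates 1 and 2 of day 1 both lay above control replicates 3 and 4 of day 2, which was true of 39.8% of all genes. This held for 9 of 11 mitosis genes, 7 of 9 cyclins and kinases, 4 of 4 genes of nucleotide supply, 7 of 10 licensing genes and 6 of 11 genes of the fork. Over the mitosis genes, the mean deviation of an array from the mean of all arrays was 0.15 to 0.19 on the 1x arrays, against 0.19 and 0.14 on control replicates 1 and 2 and -0.18 and -0.30 on control replicates 3 and 4. The 1x arrays were thus close to control replicates 1 and 2. Over the replication genes, the same mean was 0.10 to 0.23 on the 1x arrays and -0.33 to -0.08 on the control arrays, so that these groups were apart on both days. What set the control arrays apart was not tested.

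At 0.5x the replication genes lay above control by a smaller median, 0.21 over the 25 genes, and the 11 mitosis genes had a median of -0.18. Of the 46 genes only rpa2 rose and 0 fell (limma). At an unadjusted p under 0.05 the counts were 12 and 1, and 3730 of all 12811 genes passed that level in either direction (limma). The share of 2.17% at the adjusted threshold compares with 4.38% of all genes called higher, 4.30% called lower and 9.25% of all probes called. The count of 1 was 5 with array medians, with the authors' deposited table of values or with a scan day block. The median was 0.13, against -0.04 over all genes. In 4 genes (8.70%), gins2, rpa2, pold1 and mad2l1, every 0.5x array lay above every control array, against 4.96% of all genes. In 1 gene, ccnd1, every 0.5x array lay below every control array, against 5.97% of all genes. This comparison shares its control arrays with that of 1x.

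The gene rpa2 read -0.34, -0.67, -0.55, -0.61 and -0.74 on the 0.5x arrays, against -1.07 to -0.86 on the control arrays, a difference of 0.40 ± 0.12 (limma adjusted p = 0.0449). The groups did not overlap. The call was lost in 11 of the 14 fits that left out 1 array (limma adjusted p up to 0.129), and kept where the array left out was replicate 4 of control or 1x, or replicate 5 of 0.5x. Within the scan days the difference was 0.62 and 0.36.

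The other replication genes did not pass at 0.5x, and for most of those named above the arrays of 0.5x lay across both ranges. The gene pcna read 0.79, 0.60, 0.55, 0.39 and 0.25 on the 0.5x arrays (0.34 ± 0.15 against control; limma adjusted p = 0.144), and tyms read 0.49, -0.24, 0.34, 0.20 and 0.11 (0.21 ± 0.14; 0.337). The gene cdc6 read -0.04, -0.54, 0.03, -0.46 and -0.36 (0.49 ± 0.16; limma adjusted p = 0.0639), and cdc45 read -1.42, -1.60, -0.73, -1.31 and -0.93 (0.02 ± 0.18; 0.961). Other probes of these genes gave other values: the second cdc6 probe differed by 0.34 at 0.5x and 1.04 at 1x, and the second cdc45 probe by 0.29 and 0.49. Within the scan days cdc45 differed by -0.41 and 0.27 at 0.5x. The gene gins2 read 0.63, 0.55, 1.13, 1.05 and 0.86 (0.40 ± 0.13; limma adjusted p = 0.060), above every control array.

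Among the helicase genes at 0.5x, mcm2 read 3.28, 3.03, 3.66, 3.14 and 3.33 and mcm3 read 1.22, 1.11, 1.40, 1.16 and 1.34. The gene mcm4 read 2.00, 1.68, 2.09, 1.87 and 1.82, and mcm5 read 2.64, 2.85, 3.27, 3.06 and 2.90. In all 4 genes 0.5x replicate 3 was the highest array of its group. Their differences from control were 0.18, 0.28, 0.35 and 0.29 (limma adjusted p = 0.0724 to 0.361). The polymerase genes pold1 and pold2 read 0.52, 0.60, 1.01, 0.65 and 0.66, and 0.76, 0.74, 0.95, 0.89 and 0.68, with 0.5x replicate 3 again the highest. Their differences from control were 0.30 and 0.21 (limma adjusted p = 0.0815 and 0.225). The gene rrm2l read 1.66, 1.95, 2.07, 1.84 and 2.15 (0.13 ± 0.20; limma adjusted p = 0.679), and chek1 read -3.01, -3.75, -3.18, -3.58 and -3.75 (0.17 ± 0.21; limma adjusted p = 0.577).

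Beside the mitosis genes, the cyclins and kinases had a median of -0.09 at 0.5x against control, whereas licensing genes had 0.28, fork genes 0.22 and nucleotide genes 0.15. The sign of the cyclin median turned when the median of each array replaced its 75th percentile (0.02). It also turned within scan day 2 (0.11). The mitosis median was -0.25 within scan day 1, 0.07 within day 2 and 0.13 without control replicates 1 and 2. The replication genes had a median of 0.08 within day 1 and 0.31 within day 2.

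Single mitosis genes at 0.5x had differences from control above and below 0. The gene aurka read -0.30, -0.50, -0.10, -0.31 and -0.17 on the 0.5x arrays, against 0.11, 0.07, -0.11 and -0.12 on the control arrays (-0.27 ± 0.10; limma adjusted p = 0.0949). The gene mki67 read -0.26, 0.25, 0.34, 0.23 and 0.45 (-0.35 ± 0.19; limma adjusted p = 0.232). The gene aurkb read 1.11, 1.16, 1.43, 1.33 and 1.55 (0.17 ± 0.11; limma adjusted p = 0.313). These values overlapped the control values. The gene mad2l1, at 0.25, -0.04, 0.44, 0.14 and 0.17, lay above all control arrays (0.32 ± 0.10; limma adjusted p = 0.0639). The genes ccnb1 and cdk1 read 0.52, 0.05, 0.36, 0.15 and 0.43, and 0.22, -0.35, -0.12, -0.42 and -0.38, with differences from control of -0.03 ± 0.12 and 0.07 ± 0.18; some of their 0.5x arrays lay outside the control range.

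Between the effluent strengths every role had a median difference above 0. It was larger for cyclins and kinases, nucleotide supply and mitosis than for licensing and the fork. For cyclins and kinases this order was not kept with a slide block, where their median was 0.183, against 0.198 for licensing. Nor was it kept within scan day 1, with a single 0.5x array (0.177 against 0.205). At 1x against 0.5x, 42 of the 46 genes differed by more than 0, with a median of 0.25 against -0.02 over all genes, and 1 passed the test. At an unadjusted p under 0.05 the counts were 20 higher and 0 lower, and 2815 of all 12811 genes passed that level in either direction (limma). The gene that rose was aurka, and its share of 2.17% compares with 1.67% of all genes called higher, 2.65% called lower and 4.07% of all probes called. In 6 genes (13.0%), rrm1, ccna2, ccnb1, plk1, aurka and birc5a, every 1x array lay above every 0.5x array, against 4.46% of all genes, and in 0 genes below, against 5.73%.

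The gene aurka read 0.16, 0.05, 0.17, 0.08 and 0.13 on the 1x arrays, against -0.30, -0.50, -0.10, -0.31 and -0.17 on the 0.5x arrays, a difference of 0.40 ± 0.09 (limma adjusted p = 0.0301). The groups were apart, and the 1x arrays lay around the higher control arrays, replicates 1 and 2. Other aurka probes differed by 0.27 and 0.30 and were not called (limma adjusted p = 0.440 and 0.209). Leaving out any 1x array but replicate 5, or replicate 2 or 4 of 0.5x, ended the call of the brightest probe (limma adjusted p up to 0.0878). So did array medians, the authors' value table, a slide or replicate block and the mean of all probes of a gene. Values in the authors' table matched those with the slide median of each probe removed. As slide 4 held no 1x array, such removal can take away part of a difference between the strengths. Within the scan days aurka differed by 0.43 and 0.37, with a single 0.5x array on day 1.

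By role, the medians at 1x against 0.5x were 0.33 for cyclins and kinases, 0.30 for nucleotide supply, 0.29 for mitosis, 0.15 for the fork and 0.14 for licensing. All 9 cyclins and kinases and all 11 mitosis genes were above 0. The mitosis genes plk1, birc5a and racgap1 differed by 0.44 ± 0.13, 0.39 ± 0.10 and 0.94 ± 0.30 and missed the threshold (limma adjusted p = 0.0818, 0.0509 and 0.0944). Their second probes differed by 0.52, 0.37 and 0.38 (limma adjusted p = 0.128, 0.294 and 0.243). The racgap1 signal was dim, with means of -3.91 at 1x and -4.85 at 0.5x. Of the replication genes, rpa2 came closest, with 0.40 ± 0.11 (limma adjusted p = 0.0564), whereas rpa3, rfc3 and gmnn lay at -0.01, -0.06 and -0.14.

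For each array, the mean deviation of the 25 replication genes less that of the 11 mitosis genes was also computed. It was -0.27, -0.29, -0.15 and -0.02 on the control arrays, 0.03, 0.20, 0.19, 0.22 and 0.08 on the 0.5x arrays and -0.02, -0.06, 0.02, -0.01 and 0.08 on the 1x arrays. All 0.5x arrays lay above all control arrays, and the 1x arrays lay around the highest control array, below all 0.5x arrays but replicate 1. Within scan day 2 the medians against control had the same order in both roles, 0.31 at 0.5x and 0.59 at 1x for replication genes and 0.07 and 0.34 for mitosis genes. The difference of the means was chosen after the values had been seen and was given no test.

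**Figure D5:**
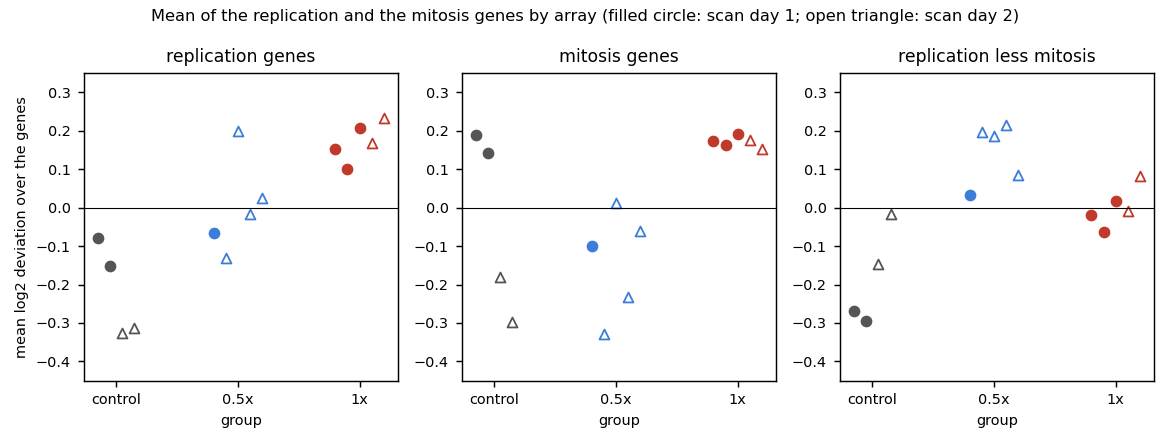
Mean log2 deviation from the gene means on each array (y axis) for 25 replication genes, for 11 mitosis genes and for the replication mean less the mitosis mean, by group from control to 1x. Filled circles are arrays of scan day 1 and open triangles of scan day 2. Replication genes are higher on the 0.5x and 1x arrays than on control replicates 3 and 4, mitosis genes are lowest on the 0.5x arrays and on control replicates 3 and 4, and in the difference all 0.5x arrays lie above all control arrays while 0.5x replicate 1 lies within the 1x values.

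Most genes had several probes. Over all 106 tested probes of these genes, 40 were called higher at 1x against control and 2 lower (limma). Of all 38803 probes on the array that were tested, 3833 were called higher and 7314 lower. Probes of the same gene are not independent measurements. In 25 of the 34 genes with more than 1 probe, all probes differed in the same direction. Of the called genes, mcm3, mcm4 and mcm5 had other probes that were not called. These differed by 0.16 for mcm3, 0.16 for mcm4, and 0.23 and 0.15 for mcm5 (limma adjusted p = 0.218 to 0.575). In the other called genes with more than 1 probe, every probe was called. The call of mcm3 was lost with the mean of all probes of a gene. In 7 genes another probe was called although the one representing the gene was not. For ccnb1 all 5 other probes were called higher, by 0.46 to 0.72 (limma adjusted p = 0.0124 to 0.0342). A second mcm6 probe rose by 0.91 (limma adjusted p = 0.00194), and 2 of the 5 other rrm2l probes rose, by 0.58 and 0.70. One further probe each of rfc5 and lig1 rose, by 0.44 and 0.43 (limma adjusted p = 0.0306 and 0.0275). The last probes of rfc5 and lig1, at 0.02 and -0.13, were not called. The lower calls were second probes of birc5a (-0.63; limma adjusted p = 0.0399) and ccnd1 (-0.56; 0.0166), of which the birc5a probe was also called lower at 0.5x (-1.0; 0.0139). A second gins2 probe was called higher at 0.5x (0.43; limma adjusted p = 0.0296). The brightest birc5a probe was at 0.20. At 1x against 0.5x, 2 ccnb1 probes, a cdk2 probe and a cdc20 probe were called higher besides that of aurka (limma). Of all 38803 probes, 674 were called higher and 907 lower in that comparison.

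Genes that act beside these were read from further lists. A list of origin recognition and replisome genes, which also held genes of nucleotide supply and chromatin, had 30 tested genes. Of these, 11 rose (36.7%) and 0 fell at 1x against control, where 10.3% of all genes were called higher and 16.2% lower. The median of the 30 genes was 0.29 (0.13 and 0.48 within the scan days). Among them dck, which salvages deoxynucleosides, rose by 0.78 ± 0.15, dhfr, which feeds thymidylate synthesis, by 0.63 ± 0.13, and the polymerase alpha subunit gene pola2 by 0.52 ± 0.11 (limma adjusted p = 0.00357, 0.00441 and 0.00603). Of 62 further genes of mitotic entry, spindle, kinetochore and exit, 6 rose and 1 fell, with a median of 0.17 (-0.02 and 0.34 within the days); the share of 9.68% that rose was near that of all genes. The kinetochore gene zwilch rose by 0.81 ± 0.13 and the condensin gene ncapg by 0.78 ± 0.14 (limma adjusted p = 0.00172 and 0.00292). The gene that fell was pkmyt1, whose kinase holds back Cdk1, by 0.87 ± 0.14 on the log2 scale (limma adjusted p = 0.00134). It was lower at 1x than at 0.5x too (-0.75 ± 0.13; limma adjusted p = 0.00547). In that comparison 5 of the 62 genes were called higher (8.06%, against 1.67% of all genes) and only pkmyt1 lower, and 55 differences lay above 0. In 16 of them (25.8%, against 4.46% of all genes) every 1x array lay above every 0.5x array. Of the 30 origin and replisome genes, 0 were called higher there and 1 lower.

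Of 15 inhibitors and regulators of the first gap phase, 3 fell (20%, near the 16.2% of all genes) and 1, btg2, rose at 1x against control, with a median of -0.09. The kinase inhibitor gene cdkn2c fell by 0.34 ± 0.10, the antiproliferative gene btg1 by 0.40 ± 0.12 and the cyclin gene ccnd2a by 0.43 ± 0.15 (limma adjusted p = 0.0215, 0.0237 and 0.0414). Of 13 transcription factors of the cell cycle, 2 rose (15.4%, against 10.3% of all genes), e2f7 and tfdp1b, and 0 fell, with a median of 0.10. At 0.5x against control 4.38% of all genes were called higher and 4.30% lower. The lists, in the order given, had there 1 of 30, 0 of 62, 1 of 15 and 1 of 13 genes higher and 0, 1, 2 and 0 lower. Those higher were dhfr, cdkn1d and mycb, and those lower were ccnf, cdkn1ca and cdk6; these and btg2, e2f7 and tfdp1b were picked out after their values were seen.

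Markers of cell types that divide in the larva, and of the main organs, were read beside the replication genes. Their counts at 1x stand against 10.3% of all genes called higher and 16.2% called lower. At 1x against control, of 25 markers of neural progenitors 9 fell and 1, the brain aromatase gene cyp19a1b, rose (median -0.24, or -0.48 and -0.05 within the scan days). Of 17 blood progenitor markers, gata1a and klf1 rose and runx1 fell, and of 10 germ line markers dmrt1 and gdf9 rose and tdrd9 fell (medians 0.17 and -0.08). The marker genes named here were picked after their values were seen. The mean deviation of the neural progenitor markers was -0.11 to 0.05 on the 1x arrays and -0.04 to 0.42 on the control arrays. Of 19 hepatocyte markers 8 rose and 0 fell, of 16 enterocyte markers 4 apolipoprotein genes rose and 0 fell, and of 17 exocrine pancreas markers 0 were called. Their medians at 1x against control were 1.86, 1.31 and 2.04 within scan day 1 and 0.05, -0.08 and -1.17 within day 2, where the replication genes had 0.28 and 0.59. Of 17 neuron markers 7 fell and 0 rose (median -0.44, or -0.66 and -0.10 within the scan days). Of 17 muscle markers 9 fell and myog rose (median -0.33, or -0.35 and -0.18 within the scan days, and -0.03 with quantile normalisation). The part of cell composition in the differences of the replication genes was not tested.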

How the data were processed

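Whole larvae were measured on 14 one-colour arrays. The authors deposited scanner output; the submitters' processing notes name Agilent Feature Extraction 10.7. Its processed signals are linear intensity values from which the software had subtracted the background, per the file headers. The flags for background, saturation and outliers are those of the authors' deposited files. How the authors' deposited table of log2 values was made is not stated in these sources. Its values matched the log2 of the processed signal after removal of the array's 75th percentile and of the slide median of each probe (correlation 0.872 and 0.901 on slide 1, 1.00 on the other slides; column medians -0.0662 to 0.110). It served as an alternative only.

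Outlier spots (73) were left out and spots of a probe averaged. Signals were taken as log2 intensity less each array's 75th percentile. A probe had to be well above background on 4 or more arrays of some group (38803 of 43603). The accessions of 25978 probes matched the RefSeq gene table of GRCz12tu, used for names only. The kept probe with the highest mean represented a gene. Groups were compared with limma (version 3.58.1, R 4.3.3; lmFit, eBayes, all 14 arrays, no covariates), with Benjamini-Hochberg adjustment over all probes and a threshold of 0.05; the p-values of genes all come from it. The script was tested on simulated data.

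Values on each array are printed for the genes past the threshold at 1x with the smallest adjusted p (up to 14 higher), for those past it in another comparison, and for pcna, mcm2, mcm5, rrm2, ccnb1, cdk1, aurkb and mki67. Of the further lists, the 5 smallest adjusted p in each direction at 1x are named (4 fell). Genes and lists were chosen with earlier results of these data known. Alternatives changed the background (normexp on the median signals, offset 50, since the files hold no mean signal), the scaling, the filter, the values, the arrays fitted, the blocks (slide, scan day, replicate number), the prior, the probe rule and the arrays left out. Same-numbered arrays deviated together in only 7 of 13 pairs (correlation over 0.1; range -0.22 to 0.49), so the numbers were not taken as pairs. All 7 of those pairs shared a scan day, so this check cannot tell pairing from scan day. Promoters and probe sequences were not used here. One list of progenitor markers is not reported here.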

Additional observations from a re-analysis of the deposited data

Results flagged for a closer look

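In 2 of 60 groups of 4 or 5 arrays tested, an array stood far from the others of its group; chance alone marks about 1 group in 20. The gene pold1 read 1.01 on 0.5x replicate 3, against 0.52 to 0.66 on the other 0.5x arrays. The gene mcm2 read 2.85 on control replicate 4, against 3.18 to 3.21 on the other control arrays; its call at 1x was kept without that array.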

How the results depend on the processing

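With 4 or 5 arrays a group, small differences were out of reach: the median standard error was 0.16 against control and 0.15 between the strengths. At 1x against control 17 of the 46 genes were called. This count became 28 with the authors' value table, 27 with a scan day block, 26 without control replicates 1 and 2, 6 within scan day 2 and 11 to 20 without 1 array. It was 15 with a replicate block, whose numbers were not taken as pairs, and 24 with a slide block. Only pcna and rpa2 kept their call in all 29 settings. At 0.5x against control, where rpa2 alone was called, the count was 5 with array medians, with the authors' table and with a scan day block, 3 with a slide block or the mean of all probes of a gene, 2 with an intensity trend or within scan day 1, 0 without a filter, with only the arrays compared or within scan day 2, and 0 to 3 without 1 array. At 1x against 0.5x, where aurka alone was called, the count was 7 without control replicates 1 and 2 or with only the arrays compared, 3 with normexp, an intensity trend or the mean of all probes, 2 with quantile normalisation or with probes above background on all arrays, 0 with array medians, the authors' table, a slide block or within either scan day, and 0 to 6 without 1 array. Of all probes, 11147 were called at 1x against control, but 18065 within scan day 1, 1574 within day 2, 4276 without control replicates 1 and 2 and 5939 to 12996 without 1 array. With a scan day block 14966 were called. In the main fit 11147 were called. Of the called probes 3833 were higher, against 3185 of 16272 with normexp, 4911 of 10866 with quantile normalisation and 4445 of 10014 with array medians; normexp moved the median of all probes to -0.20, against -0.09. At 0.5x against control 3590 probes were called, but 2034 with normexp, 1122 with only the arrays compared, 11654 and 835 within the scan days, 606 without control replicates 1 and 2 and 1111 to 9607 without 1 array. Of these 1372 were higher, against 1643 of 2999 with quantile normalisation and 1791 of 2819 with array medians, which moved the median of all probes to -0.00, against -0.11. At 1x against 0.5x 1581 probes were called, but 0 with the authors' table (4063 at an unadjusted p under 0.05, limma) or within scan day 1, 1030 within day 2, 3242 with only the arrays compared, 727 with a slide block, 3237 without control replicates 1 and 2 and 709 to 4626 without 1 array. In the authors' table, whose values matched a removal of slide medians, part of a difference between the strengths can be lost. Among the genes given on each array, some differences changed sign. At 1x against control these were rrm2l (-0.044 within scan day 1) and mki67 (0.088 within day 2). At 0.5x against control, mcm5 was -0.062, cdc45 -0.406, rrm2l -0.552 and aurkb -0.099 within scan day 1, and cdc45 was -0.033 with normexp and -0.0022 with a replicate block. There ccnb1 was 0.078 with array medians, 0.141 with the authors' table, 0.027 with a slide block, 0.039 with a scan day block, 0.041 and 0.068 within the days and 0.122 without control replicates 1 and 2. Without 1 array, cdc45 ran from -0.101 to 0.141, rrm2l from -0.050 to 0.340, ccnb1 from -0.081 to 0.037 and cdk1 from -0.039 to 0.192. At 1x against 0.5x, cdc6 was -0.026 with array medians, -0.029 with the authors' table, -0.070 with a slide block, -0.103 with a scan day block and -0.142 and -0.012 within the days, and mki67 was -0.0076 with array medians and -0.035 with the authors' table. Without 1 array, cdc6 ran from -0.041 to 0.103 and mki67 from -0.072 to 0.108. The causes of these changes were not tested.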
